A study of Mus musculus with 4 samples.

Results

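Acute phase proteins are plasma proteins that the liver secretes in altered amounts after infection or injury, when interleukin-6, interleukin-1 and glucocorticoids act on hepatocytes through transcription factors such as STAT3, NF-kB and C/EBP. The serum amyloid A proteins (Saa) ride on high-density lipoprotein, the orosomucoids (Orm) are carrier proteins of the lipocalin family, haptoglobin (Hp) binds free hemoglobin, hemopexin (Hpx) binds free heme, and C-reactive protein (Crp) is a pentraxin of innate immunity. The genes Saa1 to Saa4 and Orm1 to Orm3 lie side by side as families of gene copies, while Hp, Hpx and Crp stand as single genes. These 10 genes, named as a list and placed by their mm10 coordinates, were located in the topologically associating domains (TADs) of AML12 cells, among 21755 protein-coding genes placed in the same way. TADs are stretches of a chromosome that contact themselves more often than their surroundings, and a gene and its regulatory elements often share one.

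The AML12 line was established from hepatocytes of a mouse transgenic for human TGF-alpha and stands for the hepatocyte by its origin only, since the TAD lists carry no expression by which its markers could be checked. In situ Hi-C, which ligates and sequences pieces of chromatin that lie close together, was performed on 2 replicates of cells grown as a layer on dishes (2D) and 2 of cells embedded in Matrigel (3D). All cultures received 10% fetal calf serum, insulin, transferrin, selenite and 40 ng/mL of dexamethasone, a glucocorticoid, and 1 mM hydroxyurea to stop the cells at the G1/S boundary, for 24 h in 2D and 36 h in 3D. The authors combined both replicates before they called TADs, so each culture has 1 list (4467 TADs in 2D and 4355 in 3D) placed on 40 kb bins, without replicate spread or read depth. No test between the cultures was therefore possible, all differences are descriptions of these lists, and the longer drug treatment in 3D cannot be told apart from the growth dimension.

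The loci differed in how the lists treated them. The Orm cluster and Hpx were in TADs with the same start and end in both cultures. The Saa cluster was in no TAD in 2D and in a TAD of 160 kb in 3D, Hp was at the edge of a 2D TAD of 2040 kb and in a 3D TAD of 120 kb, and the TAD of Crp measured 920 kb in 2D but 1040 kb in 3D. Neither list holds a TAD shorter than 120 kb, and the rule for leaving stretches unassigned is not given in the sources used here, so being in no TAD means only that no TAD was listed there. In all, 6 of the 10 gene starts were inside a TAD in 2D, against 76.7% of all protein-coding genes, and 10 of 10 in 3D, against 83.5%. The TADs of both cultures agreed within 40 kb, which is 1 bin, at both ends for 4 of the 10 genes (Orm1, Orm2, Orm3 and Hpx), against 49.7% of all genes, and in all 4 the ends were identical, against 35.1%. Within 80 kb the same count of 4 was found, against 56.1%, and when TADs had to overlap reciprocally by at least 80% or 50% Crp joined, giving 5 of 10 against 53.2% and 64.4%. As neighbouring copies share a TAD, the agreement rests on 2 of 5 loci, and the share of genes that agreed was near its background.

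**Figure D1:**
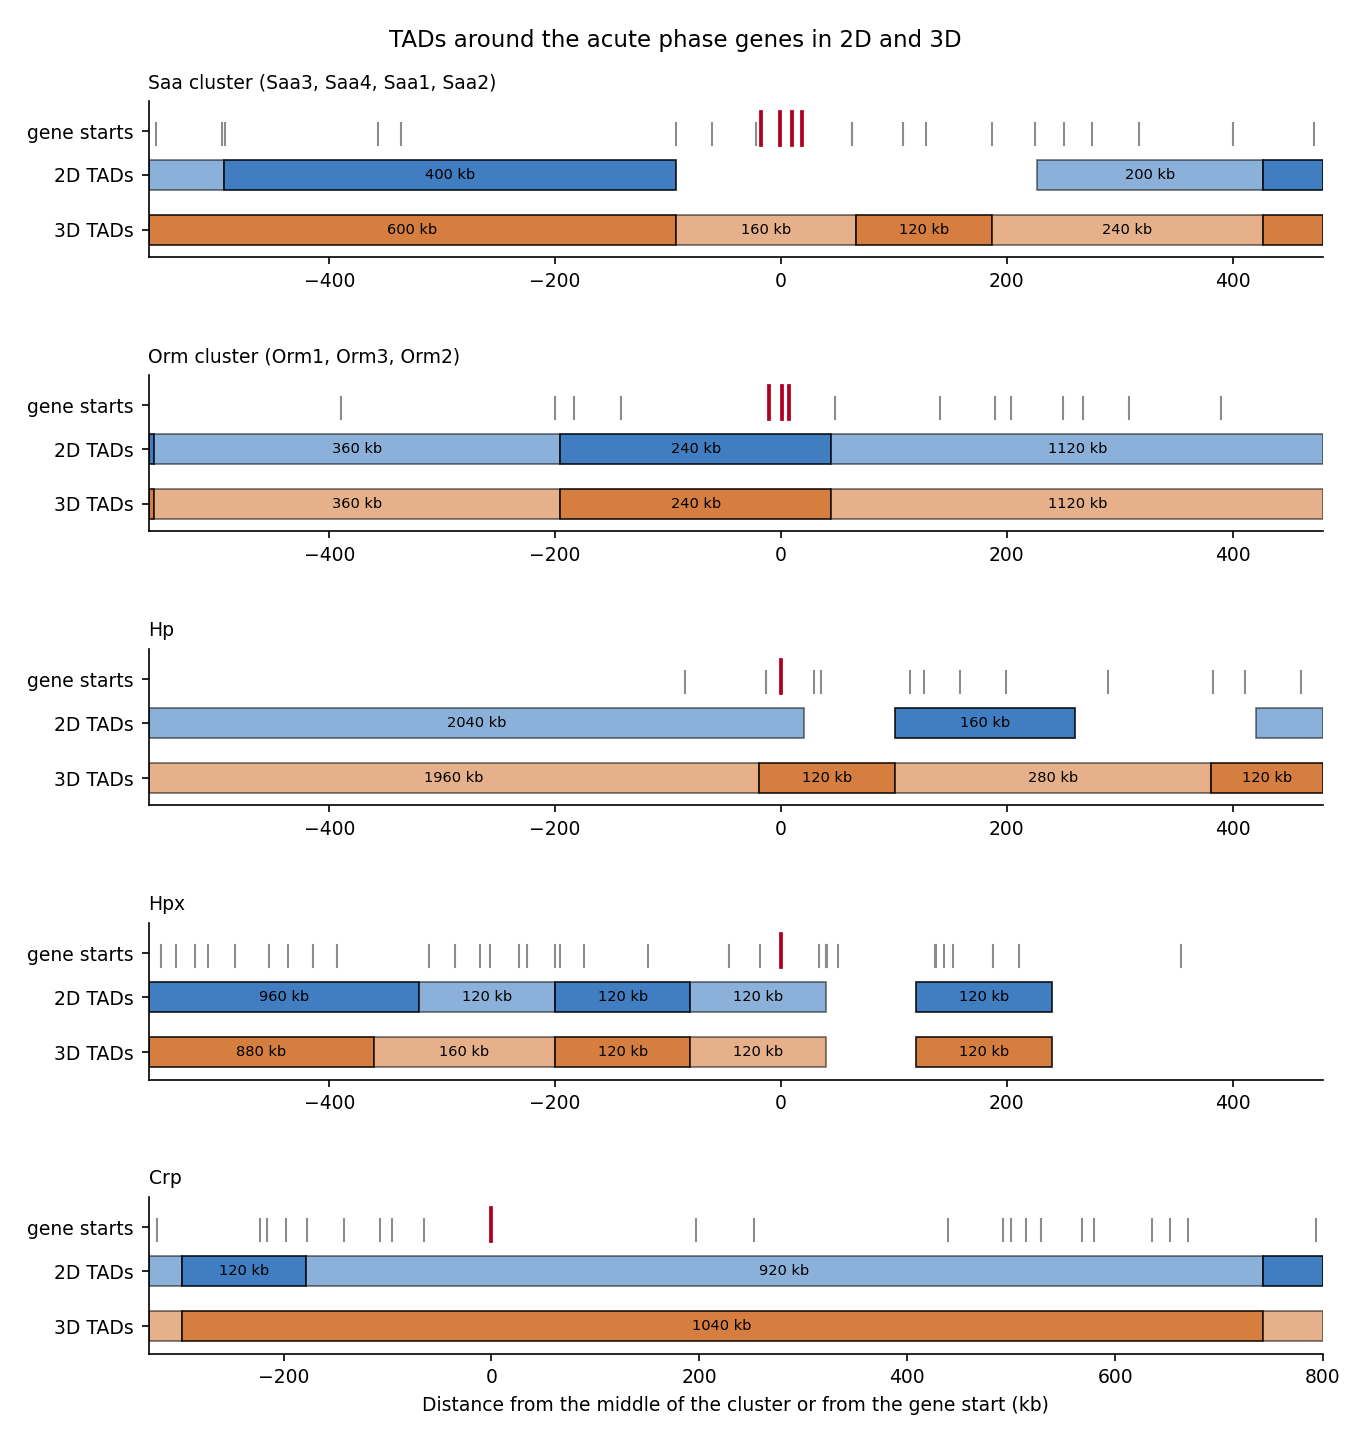
TADs of the 2D list (blue) and of the 3D list (orange) around the 5 loci, drawn to scale against the distance in kb from the middle of the cluster or from the gene start; light and dark shades only separate neighbouring TADs, white stretches are in no TAD, numbers give the whole size of a TAD also where the panel clips it, and ticks are starts of protein-coding genes (red for the acute phase genes). The Orm cluster and Hpx have the same TAD in both rows, whereas the Saa cluster is under a white stretch in 2D and under a TAD of 160 kb in 3D.

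The sequences shown first are the stretches of 250 bases upstream of the start of Saa1 and Saa2, the most alike of the Saa copies, and of Orm2 and Orm3, the Orm copies with an entry in the table, since the mapping of the reads depends on how far such copies differ. They were taken from a set of promoters of RefSeq genes on GRCm38.p6. The copy of this set used here held 8 of the 10 genes and had no entry for Hp and Orm1. Capitals mark matches to the C/EBP letters (TT, any 2 bases, then GCAA) on either strand. They are given 5′ to 3′ along each gene, from chr7:46742981-46743230 (minus strand) for Saa1, chr7:46751583-46751832 (plus strand) for Saa2, chr4:63362199-63362448 (plus strand) for Orm2 and chr4:63355908-63356157 (plus strand) for Orm3.
Saa1: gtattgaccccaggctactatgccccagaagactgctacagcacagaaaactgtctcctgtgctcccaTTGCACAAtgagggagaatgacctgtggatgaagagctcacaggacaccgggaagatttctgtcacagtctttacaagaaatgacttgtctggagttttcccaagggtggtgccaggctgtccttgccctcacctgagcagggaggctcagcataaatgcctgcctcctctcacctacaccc
Saa2: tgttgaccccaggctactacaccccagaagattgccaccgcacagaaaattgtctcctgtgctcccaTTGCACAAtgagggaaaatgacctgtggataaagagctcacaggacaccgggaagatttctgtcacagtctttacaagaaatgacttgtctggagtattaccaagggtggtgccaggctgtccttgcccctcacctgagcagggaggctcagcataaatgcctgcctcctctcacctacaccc
Orm2: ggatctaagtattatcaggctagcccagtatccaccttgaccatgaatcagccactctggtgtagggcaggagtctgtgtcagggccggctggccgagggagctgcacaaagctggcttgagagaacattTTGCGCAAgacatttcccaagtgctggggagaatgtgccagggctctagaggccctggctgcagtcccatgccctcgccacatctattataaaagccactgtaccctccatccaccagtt
Orm3: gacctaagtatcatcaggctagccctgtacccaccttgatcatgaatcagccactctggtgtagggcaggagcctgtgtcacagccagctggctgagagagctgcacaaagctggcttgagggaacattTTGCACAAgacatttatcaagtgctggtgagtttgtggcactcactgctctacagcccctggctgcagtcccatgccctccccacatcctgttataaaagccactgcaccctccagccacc
Over these bases, Saa1 and Saa2 were identical at 94.8% of the aligned positions and Orm2 and Orm3 at 85.5%. In Saa1 and Saa2 the match begins at positions -182 and -183 relative to the RefSeq start. In Orm2 and Orm3 it begins at -120 and -121.

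In windows from 250 bases before to 50 bases after the start, C/EBP letters were found for 7 of the 8 genes, all but Crp, while 10.8% of the 27025 promoters in the table had them. These 7 genes are the Saa copies, Orm2, Orm3 and Hpx. Copies of a family are not independent, and Saa1 and Saa2, like Orm2 and Orm3, have the match at nearly the same place. The count therefore does not stand for 7 separate cases. In Saa3 and Hpx the match began at -99 and -200, and Saa4 had matches at -245 and -52. The STAT letters (TTC, any 3 bases, then GAA) and the 10-letter NF-kB consensus, also searched on both strands, were found in 0 of the 8 windows, against 8.47% and 4.35% of all, which says only that these letters are not in these windows. A match is a description of letters and not of a bound site, and factor binding was not measured here.

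The Saa cluster occupied 42.3 kb on chromosome 7, from 46711998 to 46754313, in the order Saa3, Saa4, Saa1 and Saa2. Saa1 and Saa2 are the circulating forms that the liver makes in the acute phase, Saa3 is also made outside the liver, and Saa4 is a largely constitutive form. RefSeq gives the names Saa1 and Saa2 as synonyms of each other, and here each name stands for the gene that carries it at its position in both annotations. Saa3, Saa4 and Saa1 are transcribed from the minus strand and Saa2 from the plus strand, so that Saa1 and Saa2 face away from each other. No border was inside the cluster in either list. In 2D all 4 genes were in an unassigned stretch of 320 kb, from 46640001 to 46960000, between a TAD of 400 kb and one of 200 kb. Of the 1569 unassigned stretches between TADs of the 2D list, which had a median of 80 kb, 11.7% were at least this long.

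In 3D the same stretch was divided into TADs. The Saa genes were in one of 160 kb, from 46640001 to 46800000, next to a TAD of 120 kb and then one of 240 kb that began at 46920001. The lower border, 0.193 kb from the start of Sergef, was at the same position in both lists. The upper border of the 3D TAD, at 46800000, was inside Gtf2h1, a subunit gene of the transcription factor TFIIH, 3.90 kb from its start, and the nearest border of the 2D list was 160 kb away. Being outside TADs in 2D and inside one in 3D held for these 4 genes of 1 locus, and for 10.8% of all protein-coding genes. The opposite pattern was found for 0 of the 10 genes and for 3.95% of all. Of the 2339 genes with this pattern, 36.6% had a 3D TAD of at most 160 kb.

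Several neighbours were with the Saa genes in both lists. Tph1 (tryptophan hydroxylase), Saal1 (serum amyloid A-like 1), Hps5 (an organelle biogenesis factor) and Gtf2h1 started in the unassigned stretch of 2D and in the TAD of 3D. Ldha and Ldhc (lactate dehydrogenases), Tsg101 (an endosomal sorting protein) and Uevld started in the unassigned stretch in 2D but outside the TAD of the Saa genes in 3D. The stretch thus held 12 protein-coding gene starts in 2D and the TAD held 8 in 3D. Gene starts less than 1 bin from a border, here Hps5, Gtf2h1 and Uevld among them, are listed on the side where the border was placed, which is not resolved at this bin size, and the same holds for the neighbours of the other loci.

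Within each list, the distances of the Saa copies to their nearest border differed by less than the bin of 40 kb. These distances therefore do not separate the copies. Saa3, the lowest copy, started 75.7 kb from the lower border, which was its nearest border in both lists. Saa4 started 92.6 kb from its nearest border in 2D and 67.4 kb in 3D. Saa1 started 103 kb from a border by the 2D list but 57.0 kb by the 3D list, and Saa2 112 kb and 48.2 kb. Nearest borders of Saa4, Saa1 and Saa2 thus changed from the lower to the upper side, through the border of the 3D list inside Gtf2h1.

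The Orm cluster occupied 21.3 kb on chromosome 4, from 63344560 to 63365878, with Orm1, Orm3 and Orm2 all on the plus strand. It was held by a TAD of 240 kb, from 63160001 to 63400000, in both lists, and no border was inside the cluster. TADs of at most this size held 44.2% of the genes located in 2D and 37.7% of those located in 3D. The TADs on both sides, of 360 and 1120 kb, were also listed with the same ends in both cultures. The cluster was at the upper side of its TAD, with 185 kb below it and 34.1 kb above it. Orm1 started 55.4 kb, Orm3 43.8 kb and Orm2 37.6 kb from the upper border, in both lists. These distances differ by less than 1 bin, so the copies are not separated by them.

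Kif12 (a kinesin) and Col27a1 (a fibrillar collagen) were the other protein-coding genes that started in this TAD. The upper border was inside Akna, 3.35 kb from the start of that gene, which was on the far side. The lower border was 5.20 kb from the start of Ambp, which encodes the precursor of the plasma proteins alpha-1-microglobulin and bikunin and was on the far side as well. Both distances are less than 1 bin, so the side on which Akna and Ambp start is not resolved at this bin size.

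Hpx, on the minus strand of chromosome 7 from 105591613 to 105600137, was in a TAD of 120 kb, from 105520001 to 105640000, in both lists. This is the shortest size in either list. TADs of 120 kb held 11.3% of all protein-coding genes in 2D and 8.97% in 3D. The gene started 80.1 kb from the lower and 39.9 kb from the upper border. Smpd1 (acid sphingomyelinase), Apbb1 (an adaptor protein of the amyloid precursor protein) and Trim3 (a ubiquitin ligase) shared the TAD in both lists. The upper border was inside Arfip2 and 0.056 kb from the start of Timm10b.

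Of the 6 genes inside TADs in both lists, Hp had the largest change in TAD size. The gene is on the minus strand of chromosome 8, from 109575128 to 109579172. In 2D its start was 20.8 kb below the upper end of a TAD of 2040 kb, from 107560001 to 109600000, and 10.8% of the genes located in 2D were in TADs of at least this size. In 3D its start was 19.2 kb above the lower end of a TAD of 120 kb, from 109560001 to 109680000. The 2 TADs overlapped by 40 kb, the single bin that holds Hp, which was 1.96% of the 2D TAD and 33.3% of the 3D TAD.

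The large TAD itself was not lost in 3D. The 3D list held a TAD of 1960 kb, from 107600001 to 109560000, whose ends were each 1 bin from those of the 2D TAD, so that these TADs agreed by the rule used here while Hp was inside only the one of 2D. Such a counterpart that does not hold the gene was found for 1.62% of all protein-coding genes. A bin with a border of the 2D list alone at one edge and of the 3D list alone at the other held the starts of 4.15% of the genes. A difference of 1 bin is the smallest that these lists can show.

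With the bin, the listed neighbours of Hp changed. Dhx38 (a splicing helicase) and Txnl4b (a thioredoxin-like protein) started in the same bin and were with Hp in both lists. Psmd7 (a proteasome subunit), Zfhx3 (a transcription factor) and Pmfbp1 shared its TAD in 2D only, whereas Dhodh (an enzyme of pyrimidine synthesis) and Pkd1l3 shared it in 3D only. The 2D border was inside Dhodh and the 3D border inside Dhx38. Above the 2D TAD the 2D list had an unassigned stretch of 80 kb, which the 3D TAD of Hp covers.

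Crp, on chromosome 1, starts at 172698055 on the plus strand. Its TAD extended from 172520001 to 173440000 in 2D (920 kb) and from 172400001 to 173440000 in 3D (1040 kb). The upper end was the same, and the 3D TAD covered 2 TADs of the 2D list, the one of Crp and one of 120 kb below it. A 3D TAD that spans at least 2 TADs of the 2D list held 4.73% of all protein-coding genes. The start was 178 kb from the nearest border in 2D and 298 kb in 3D, the farthest of the 10 genes in both lists. A nearest border at this distance or nearer was found for 80.2% of all genes in 2D and 86.3% in 3D.

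Other pentraxin genes were with Crp. Apcs, which encodes serum amyloid P component, the main acute phase pentraxin of the mouse, and Mptx2 shared its TAD in both lists, among 18 protein-coding gene starts in 2D and 21 in 3D. All 18 of the 2D TAD were in the 3D TAD, including 6 olfactory receptor genes, Fcer1a (a chain of the IgE receptor) and Aim2 (a sensor of cytosolic DNA). The 3 genes that joined in 3D were Slamf9, Igsf9 and Tagln2. The border between the 2D TADs was 0.801 kb from the start of Cfap45. In the GENCODE annotation used for placing genes, the model of Crp is 135 kb long, and no border was inside it in either list.

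**Figure D2:**
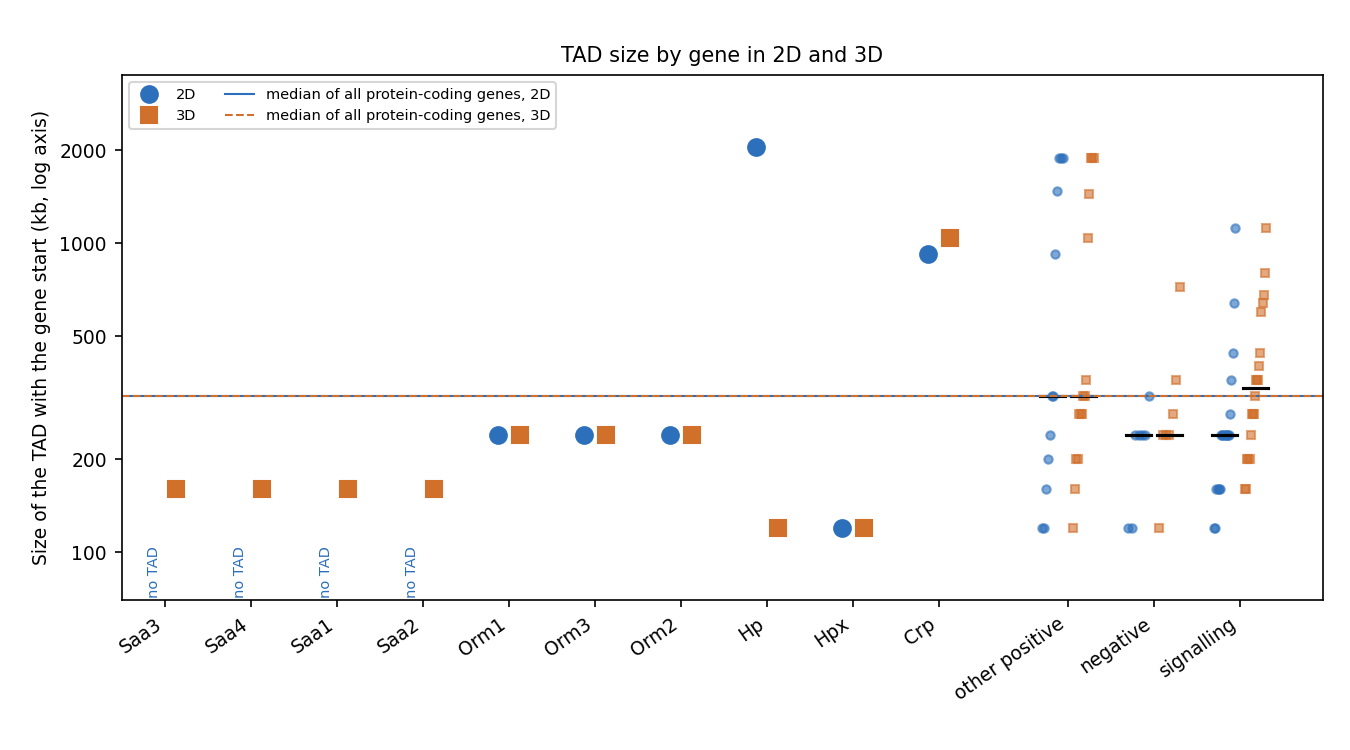
Size of the TAD that holds the gene start (kb, log axis) for the 10 genes and for 3 lists of other genes of the acute phase response, with circles for 2D and squares for 3D; "no TAD" marks members outside any TAD, listed genes outside TADs are not drawn, black bars are medians of the lists, and the blue and orange lines, which coincide at 320 kb, are the medians of all protein-coding genes. The Orm genes and Hpx have equal sizes in both cultures, Hp falls from 2040 to 120 kb, and Crp is at 920 and 1040 kb.

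Over the genes located, the median TAD size was 240 kb in 2D (6 genes, range 120 to 2040 kb) and 160 kb in 3D (10 genes, range 120 to 1040 kb). The median over all protein-coding genes was 320 kb in both lists. The 2D median leaves out the Saa genes, so the medians cover different genes, and it rests on the Orm TAD counted 3 times. With each distinct TAD counted once, the 2D list gave a median of 580 kb and the 3D list one of 160 kb. Among the 6 genes inside TADs in both cultures, the size was equal for 4, larger in 3D for Crp and smaller for Hp, while among all 15824 such genes it was equal for 49.3%, larger for 30.8% and smaller for the remaining 3158 genes. The nearest border was at a median of 65.6 kb (2D) and 51.8 kb (3D), against 53.6 and 58.3 kb over all genes. This order of the cultures is not stable, since with each locus counted once the median was 43.8 kb in both, and with TADs of at least 200 kb only it was 84.2 kb in both. When a border had to be shared by 2 adjoining TADs, the 2D list gave 293 kb and the 3D list 56.2 kb. Within 40 kb of a border were Orm2, Hp and Hpx in both lists, 3 of 10 genes against 41.1% of all in 2D and 38.7% in 3D.

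**Figure D3:**
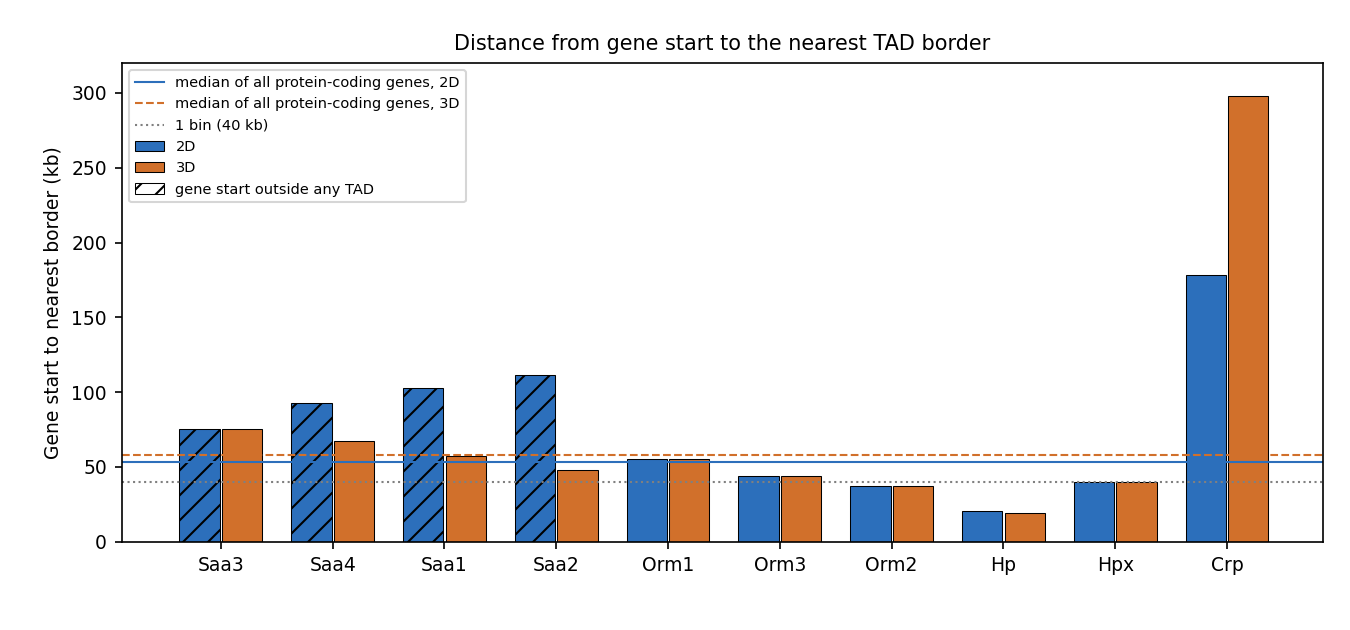
Distance from gene start to the nearest border (kb, bars from 0) in 2D (blue) and 3D (orange); hatched bars are genes outside any TAD in 2D, the coloured lines are medians over all protein-coding genes and the dotted line is 1 bin of 40 kb. Saa4, Saa1 and Saa2 were nearer to a border in 3D, the Orm genes and Hpx had equal distances, and Crp was at 178 and 298 kb.

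The members' intervals had 14 distinct edges, counting the unassigned stretch of the Saa genes as an interval. Of these, 8 were borders at the same position in both lists, 4 were borders of the 2D list alone and 2 of the 3D list alone. Over all 7735 borders of either list the shares were 50.2%, 28.1% and 21.7%. Within 40 kb, 12 of the 14 had a border in both lists, against 77.3% of all borders, and the exceptions were the 3D border inside Gtf2h1 and the 2D border next to Cfap45. A protein-coding gene held 7 of the 14 edges, against 53.7% of all borders.

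CTCF is the DNA-binding protein that marks many TAD borders, and its motif has a direction. The letters CC, any 3 bases, then AGGGGGC, a core of this motif, were searched on both strands in the 2 bins that meet at each edge. They were found at 9 of the 14 edges, against 47.2% of all 2D borders, 47.3% of all 3D borders and 31.0% of all positions on the grid. The matches at the edges of the Orm TAD, which was the same in both lists, and at the 3D border beside Hp are shown as examples. Matches at the other edges, some of which also differed between the lists, are described by strand and side only. Fixed letters are in capitals and each match is read along its own strand.
Orm, lower edge, chr4:63135488-63135499, plus strand: CCaagAGGGGGC
Orm, lower edge, chr4:63169478-63169489, plus strand: CCaacAGGGGGC
Orm, upper edge, chr4:63372078-63372089, minus strand: CCaggAGGGGGC
Hp, lower edge in 3D, chr8:109551856-109551867, plus strand: CCagcAGGGGGC
At the lower edge of the Orm TAD both matches were on the plus strand, at 9.48 kb from the border inside the TAD and at -24.5 kb outside it, and at the upper edge the only match was on the minus strand, at -27.9 kb from the border and thus inside the TAD. At the lower edges of the Saa stretch and of Hpx the match was on the plus strand and inside the interval. At the lower edges of Crp in 2D and of Hp in 3D all matches were on the plus strand but outside the TAD. On the minus strand were the matches at the lower edges of Hp in 2D, inside its TAD, and of Crp in 3D, outside its TAD. At the upper edge of the Saa stretch in 2D the match was on the plus strand and inside the stretch. Strands at all borders were not counted. The match at the 3D border of Hp was at -8.14 kb from it. No match was found at 5 edges, of which the 2D border of Hp at 109600000 and the 3D border inside Gtf2h1 were in 1 list, and the upper edges of Hp in 3D, of Hpx and of Crp were in both. Binding of CTCF was not measured in these files, and bins of 40 kb are wide for single motifs.

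Near-identical copies can lose reads where an end stays ambiguous. The authors first mapped 30 bases of each end and kept ends with a mapping quality above 30. Where these bases were not unique, they lengthened them stepwise up to the full read, so such an end could still be placed. The windows below are of the first length only and do not give a share of reads lost. Longer windows were not counted. Of the 30-base windows in the body of Saa1, 51.0% occurred once in the genome, and of those in Saa2 51.7%. Saa3 and Saa4 had 92.7% and 96.0%. The Orm genes were between 80.2% and 83.4%, Hpx was at 91.1% and Hp at 97.5%. Crp had 96.1% over its RefSeq gene and 78.7% over its longer GENCODE model. In 63 reference bins, 1 in every 1000 along the genome without unknown bases, the median was 91.1% with quartiles of 80.5 and 96.1%.

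Over the whole unassigned stretch of the Saa genes in 2D, 89.0% of the windows occurred once, over their 3D TAD 90.5%, and over the TAD of the Orm genes, which was the same in both lists, 94.4%. The bin with Saa4, Saa1 and Saa2 was at 86.2%. In whole gene bodies Saa1 and Saa2 were identical at 95.1% of the aligned positions, and the Orm copies at 79.9 to 82.7%. The part of these shared windows in the lack of a listed TAD in 2D was not tested.

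**Figure D4:**
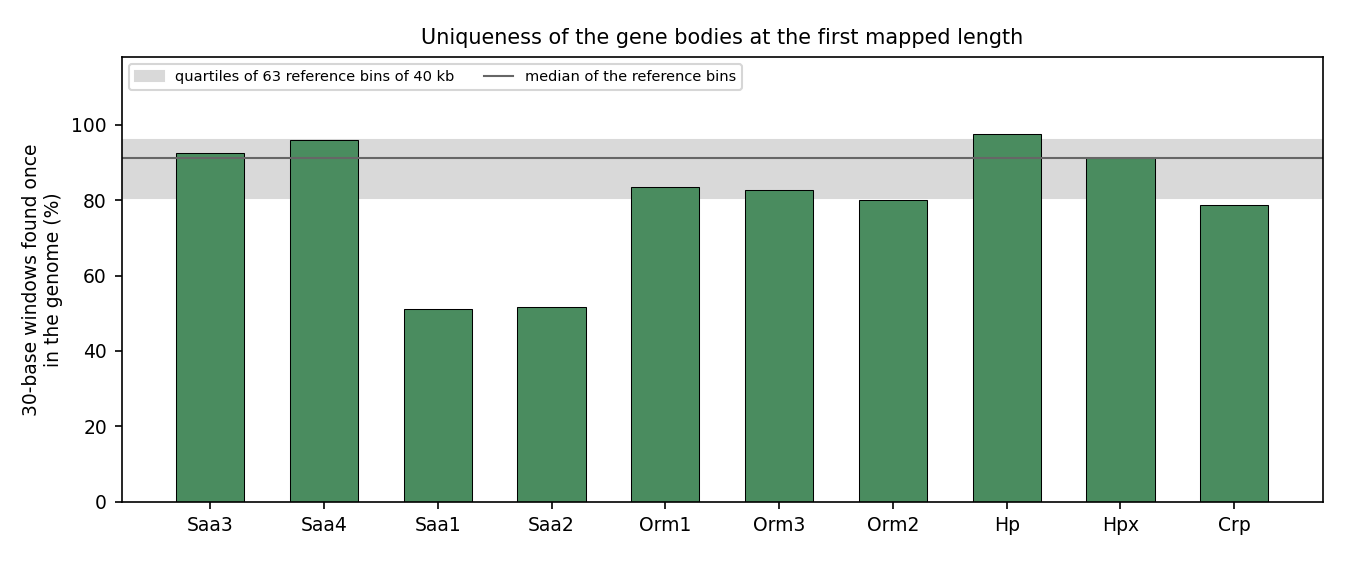
Percent of the 30-base windows of each gene body that occur once in GRCm38 (bars from 0, both strands counted); the grey band and line are the quartiles and the median of 63 reference bins of 40 kb. The bins are longer than most of the gene bodies. Saa1 and Saa2, at 51.0 and 51.7%, are far below the band, Orm2 at 80.2% and Crp at 78.7% are just below it, Hp at 97.5% is above it, and the others are inside it.

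GATC, the site of MboI, the restriction enzyme used, occurred 99.1 times per bin in the unassigned stretch of the Saa genes, 105 in the TAD of the Orm genes, 102 in that of Hpx and 100 over all 63726 bins without unknown bases. The TADs of Hp had 96.96 (2D) and 106 (3D) and those of Crp 106.8 and 107.0. Repeats made up 34.3% of the bases over all bins, 29.2% in the stretch of the Saa genes, 14.6% in the TAD of the Orm genes and 27.6% in that of Hpx. The TADs of Hp held 25.1% (2D) and 26.2% (3D), and those of Crp, at 34.4% and 33.0%, were near the share of all bins. The part of composition in the placement of borders was not tested.

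The other genes of the response were taken as 3 fixed lists. Of other positive acute phase proteins, which rise in inflammation, 17 of 18 listed genes were found (not Pla2g2a), 12 were inside TADs in 2D and 15 in 3D, and for 9 the TADs agreed within 40 kb. Of the negative acute phase proteins, which fall, 7 of 7 were inside TADs in both lists and 6 agreed. Of the cytokine signalling and transcription factor genes, 19 of 21 were inside TADs in 2D and 20 in 3D, and 11 agreed. Inside TADs were 38 of these 45 genes in 2D and 42 in 3D, against 76.7% and 83.5% of all protein-coding genes. Over the 45 genes the share that agreed was 57.8%, beside the 49.7% of all protein-coding genes. By list it was 52.9% of the positive, 85.7% of the negative and 52.4% of the signalling and transcription factor genes. Among the 38 that were inside TADs in both lists, the TAD was larger in 3D for 19, against 30.8% of all genes, equal for 15, against 49.3%, and smaller for 4, against 3158 of 15824 genes. Some of the listed genes share a TAD, such as Fga, Fgb and Fgg, or Mt1 and Mt2. These counts and shares are thus of genes and not of separate TADs.

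Only Apcs of these lists shared a TAD with one of the 10 genes, that of Crp. The largest TADs were those of the fibrinogen genes Fga, Fgb and Fgg, which encode the chains of the clotting protein and shared a TAD of 1880 kb in both lists, with starts 750 kb (Fgb) to 792 kb (Fgg) from the nearest border. The shortest, of 120 kb, held the metallothionein genes Mt1 and Mt2, Trf (transferrin), Osm (oncostatin M) and Tnfrsf1a (a TNF receptor) in 2D, Cd14 (an endotoxin coreceptor) in 3D, and Rbp4 (retinol-binding protein) in both. In 3D, Mt1 and Mt2 were in a TAD of 200 kb, Tnfrsf1a in one of 280 kb, Trf in one of 720 kb and Osm in one of 800 kb. Outside TADs in 2D and inside one in 3D were 4 of the 45, against 10.8% of all protein-coding genes, namely Cfb (complement factor B), Itih3 and Itih4 (inter-alpha-trypsin inhibitor chains) and Rela (an NF-kB subunit), which were named after their values were seen.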

How the data were processed

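In the 1 list that the authors deposited for each culture, a row is a TAD, given by the position on mm10 at which it starts and ends. By the labels and the study's methods, reads were mapped iteratively with Bowtie2 (version 2.2.9), from 30 bases in steps of 20 up to the full read length. They were kept at a mapping quality above 30. Replicates were combined, matrices of 40 kb normalized with ICE, the contacts of each chromosome set to the same total in both cultures, and TADs called with Armatus (version 1.0, gamma 0.8). Depth per TAD is unknown, so no interval was computed for it.

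Genes came from GENCODE M21 on GRCm38, the build that mm10 names, and were placed by their start. Any position where a TAD starts or ends is a border, counted once, and TADs agree when both ends are within 40 kb. Coordinates are 1-based; a border is named by the last base before it. Identity is the share of identical positions in a global alignment. Python (3.11.15), numpy (2.4.6), pandas (2.3.3), scipy (1.17.1) and Biopython (1.88) were used, and 14 of 14 measures tested on simulated data, with 5000 TADs, returned the known values. The genes named are the 10 members, genes that share both of their TADs, genes beside differing borders, and, of the other lists, those in a member's TAD or with the largest or smallest TAD. Genes beside borders common to both lists, genes with a member in only 1 list, and Cfb, Itih3, Itih4 and Rela were named outside this rule, after their values were seen. Members and lists were chosen with earlier results of these data known. Each alternative, listed in the closing section, changed 1 choice. Contact matrices and RNA-seq were not analysed here.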

Additional observations from a re-analysis of the deposited data

How the results depend on the processing

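Counts were taken as kept within 1.5 times, medians within 1 bin of 40 kb and background shares within their 95% Wilson interval, which covers counting error only; 24 of 39 alternative values were kept and 15 were not. With TADs of at least 200 kb only, 4 genes were inside TADs in 3D and their median TAD was 240 kb, which follows from dropping the TADs of the Saa genes, Hp and Hpx. With each TAD counted once, the 2D median was 580 kb, as the Orm genes then count once, and with loci counted once 2 of 5 agreed, which is the same share as 4 of 10 genes. With only positions where 2 TADs meet as borders, the median distance in 2D was 293 kb. Edges beside an unassigned stretch, such as those around the Saa genes and the upper edge of the 2D TAD of Hp, then do not count. With genes placed by the middle of the gene body, the 7 values computed were kept. With distances taken only to the ends of the TAD that holds the gene, the median was 41.9 kb over the 6 genes inside TADs in 2D and 51.8 kb over the 10 in 3D, which are different sets of genes. Agreement of the 4 genes was kept for identical ends and within 80 kb, and reciprocal overlap of at least 80% or 50% added Crp, giving 5 genes. The background shares inside a TAD were 74.7% in 2D and 82.5% in 3D on the members' chromosomes, and 80.6% and 85.6% over all annotated genes. For all annotated genes the share that agreed was 52.7%, the share outside TADs in 2D and inside in 3D 8.25% (11.3% on the members' chromosomes), and the share within 40 kb of a border 31.5% in 2D and 29.3% in 3D (37.9% in 3D on the members' chromosomes); the cause was not tested. No paired analysis was possible because TADs were called on pooled replicates, and leaving out each replicate was not possible for the same reason. The bin of 40 kb limits each distance, and the 1-bin difference at Hp is at that limit.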
